A study of Homo sapiens with 4 samples.

Results

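The genes described here are the clustered histone genes, chosen as every symbol in the count tables that begins with HIST1H, HIST2H, HIST3H or HIST4H. The rule found 90 of 56655 symbols. It took in genes of the linker histone H1 as well as of the 4 core histones, with 8 H1, 23 H2A, 26 H2B, 17 H3 and 16 H4 symbols, of which 71 are coding genes and 19 are pseudogenes. Class was read from the symbol, so HIST1H1PS2, a pseudogene without counts whose current name is H3P26, stands among the H1 symbols. RNA was sequenced from OVCAR5 (OVCAR-5), an established cell line labelled as high-grade serous ovarian cancer. The cells carried either a non-targeting short hairpin RNA (2 libraries, shCtrl) or one against the forkhead transcription factor FOXK2 (2 libraries, shFOXK2). Both groups were stably transduced with lentivirus and selected with puromycin, so the controls differ from the knockdown in the hairpin alone, as far as the labels and methods state. The study used more than one FOXK2 hairpin, and its figure legends give shFOXK2-2 for this comparison. No untransduced cells enter it, and nothing shows that replicates came from separate transductions, so the p-values measure only the spread between these libraries.

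Core histones H2A, H2B, H3 and H4 form the protein spool around which DNA is wound, and linker histone H1 binds where the DNA enters and leaves it. Most of their mRNAs come from intronless genes in clusters on chromosomes 6 and 1 that are switched on in S phase, when new DNA has to be packed. These mRNAs end in a conserved stem-loop in place of a poly(A) tail. Stem-loop binding protein (SLBP) and the U7 small nuclear ribonucleoprotein make that end. Selection with oligo(dT), as used for these libraries, therefore captures mainly the transcripts of these genes that carry a tail or an internal run of A.

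To see what the genes encode at their ends, the stem-loop was searched for within 150 bases after each stop codon in hg38. It was found in 71 of 71 coding members and in 1 of 19874 other protein-coding genes (0.00503%), H2AX, which encodes a variant of H2A. Its first base lay 23 to 68 bases after the stop codon. There were 10 distinct stem-loops, of which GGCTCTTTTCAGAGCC occurred in 41 genes, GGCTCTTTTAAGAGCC in 10, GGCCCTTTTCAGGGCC in 10 and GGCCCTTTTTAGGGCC in 4. The stem-loops of 9 members that the results below turn on are printed 5′ to 3′, with the stem and loop in capitals and 5 flanking bases on either side. All 9 lie after the coding sequence in an exon of their gene in the GENCODE v44 annotation of hg38.

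HIST1H1D (chr6:26234212-26234237, minus strand): taaacGGCTCTTTTCAGAGCCaccca
HIST1H1B (chr6:27866792-27866817, minus strand): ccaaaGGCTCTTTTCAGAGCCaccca
HIST1H2AC (chr6:26124664-26124689, plus strand): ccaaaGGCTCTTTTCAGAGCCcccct
HIST1H2AG (chr6:27133510-27133535, plus strand): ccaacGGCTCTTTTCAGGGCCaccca
HIST1H2BK (chr6:27146361-27146386, minus strand): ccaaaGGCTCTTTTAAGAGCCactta
HIST2H2BE (chr1:149886183-149886208, minus strand): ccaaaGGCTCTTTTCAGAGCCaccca
HIST1H3E (chr6:26225591-26225616, plus strand): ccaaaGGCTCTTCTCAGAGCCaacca
HIST1H4C (chr6:26104312-26104337, plus strand): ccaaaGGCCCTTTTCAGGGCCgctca
HIST1H4I (chr6:27139649-27139674, plus strand): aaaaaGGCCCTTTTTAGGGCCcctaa

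The 9 stem-loops differed at few positions, and genes with the same 16 bases differed in direction, as HIST1H1D and HIST2H2BE show further on. In the same annotation, 18 of 71 coding members had an end more than 200 bases after the stop codon, the nearest at 479 bases. The other 53 ended at most 88 bases after it. This annotation is later than the data and the one behind the counts is not given in the sources used here, so the ends describe the genes and not these libraries.

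Histone cluster genes gave few counts in every library. They held 0.01495% ± 0.000794 (SD, n = 2) of the counts in shCtrl and 0.01123% ± 0.00246 (n = 2) in shFOXK2. That is 3159 and 2607 counts in the shCtrl libraries against 1356 and 2301 in the shFOXK2 libraries, out of totals of 14284005 to 21950873. The share was lower in both shFOXK2 libraries than in either shCtrl library, by 1.33 times in the mean, with an exact permutation p of 0.33 (2-sided), the smallest that 2 against 2 libraries allow. Without the member HIST1H2AC the groups overlapped in this share. In bulk RNA, fewer cells that express these genes and less RNA per cell cannot be told apart.

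At least 3 counts were found for 45 members in both shCtrl libraries and for 43 and 48 members in those of shFOXK2. A total of 23 members, 17 of them coding, had no count in any library. For a library this allows up to 0.137 to 0.21 CPM before any scaling factor (3 counts, counting error only). CPM scale counts to one library size, elsewhere with factors from the trimmed mean of M values (TMM). Counts were concentrated in few genes, with 76.3% of all member counts in the 10 most abundant members and 12.9% in HIST1H2AC. The low-count filter passed 27 members, all coding, with 4 H1, 4 H2A, 10 H2B, 5 H3 and 4 H4 genes. Another 40 members had counts but did not pass, the highest being HIST1H3A with 15, 8, 4 and 8 counts in shCtrl replicates 1 and 2 and shFOXK2 replicates 1 and 2. The median of mean log2 CPM was 1.28 over the tested members and 4.11 over all 16417 tested genes.

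Sequence identity also bears on which members could be counted from 50-base reads. Of the 90 symbols, 18 had fewer than 50% of their 50-base stretches unique in the genome, and 6 had none. HIST1H4K, with 7.40% unique stretches, had no count in any library, whereas HIST1H4J, with 7.94%, had 0, 1, 4 and 1 counts and HIST2H4A, with none unique, had 6, 2, 3 and 1. Among the tested members, HIST1H2BK was the least unique, at 42.8%, so its counts are uncertain if the counting dropped reads with several matches. HIST1H2AD and HIST1H3D, also at 0 counts, were nearly fully unique but overlap another annotated gene on the same strand.

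FOXK2, the targeted gene, had 1796 and 1499 counts in shCtrl against 1086 and 1084 in shFOXK2. Its level was 86.8 ± 9.10 CPM (SD, n = 2) against 67.8 ± 11.9, a log2 fold change (shFOXK2 over shCtrl, as throughout) of -0.36 ± 0.25 (SE) that did not pass the test (edgeR quasi-likelihood, adjusted p = 0.257). The paper reports less FOXK2 mRNA by qRT-PCR and less protein by western blot in OVCAR5 cells with FOXK2 hairpins. Those are measurements apart from these libraries. The epithelial markers EPCAM, KRT7, KRT8 and KRT18 were present in all libraries, while SOX17 had 0 to 3 counts and WT1 0 to 2, and PAX8 and MUC16 were called lower in shFOXK2. MUC16 had 397 and 145 counts in shCtrl against 0 and 8 in shFOXK2. The summed level of 8 ovarian and epithelial markers was 3536 and 4701 CPM in shCtrl and 3659 and 4784 in shFOXK2. Most of that sum came from KRT8 and KRT18, so it says little about the ovarian markers. The 4 markers of other cell types summed to 27.1 and 24.4 CPM in shCtrl and 16.8 and 14.6 in shFOXK2, with PECAM1 and PDGFRB lower in shFOXK2 and the leukocyte marker PTPRC at 0 in 3 of 4 libraries. The part of these markers in the results was not tested.

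To describe the histone genes in FOXK2-targeted cells, the groups were compared gene by gene in a fit across all genes. Of 27 tested members, 5 were higher and 7 were lower in shFOXK2 at an adjusted p under 0.05, and 15 did not pass (members that passed are called higher or lower). Over all tested genes, 48.4% were called, 25.7% as higher and 22.7% as lower, so the members were called about as often as other genes. The groups did not overlap for 20 of 27 members, against 75.4% of all tested genes. The median log2 fold change of the members was -0.05, beside 0.04 over all tested genes. The median was 1.24 for H1 (4 genes), -1.0 for H2A (4 genes), -0.30 for H2B (10 genes), 0.33 for H3 (5 genes) and -0.29 for H4 (4 genes), given as a description without a test. These medians rest on few genes. Without a filter that of H1 was 0.37 and that of H2B 0.11, the H1 median was 0.52 when 10 counts were required in each library, and the H4 median was 0.04 with an offset for A content. That of H3 was between 0.01 and 0.10 without shCtrl replicate 1 or without either shFOXK2 library.

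**Figure D1:**
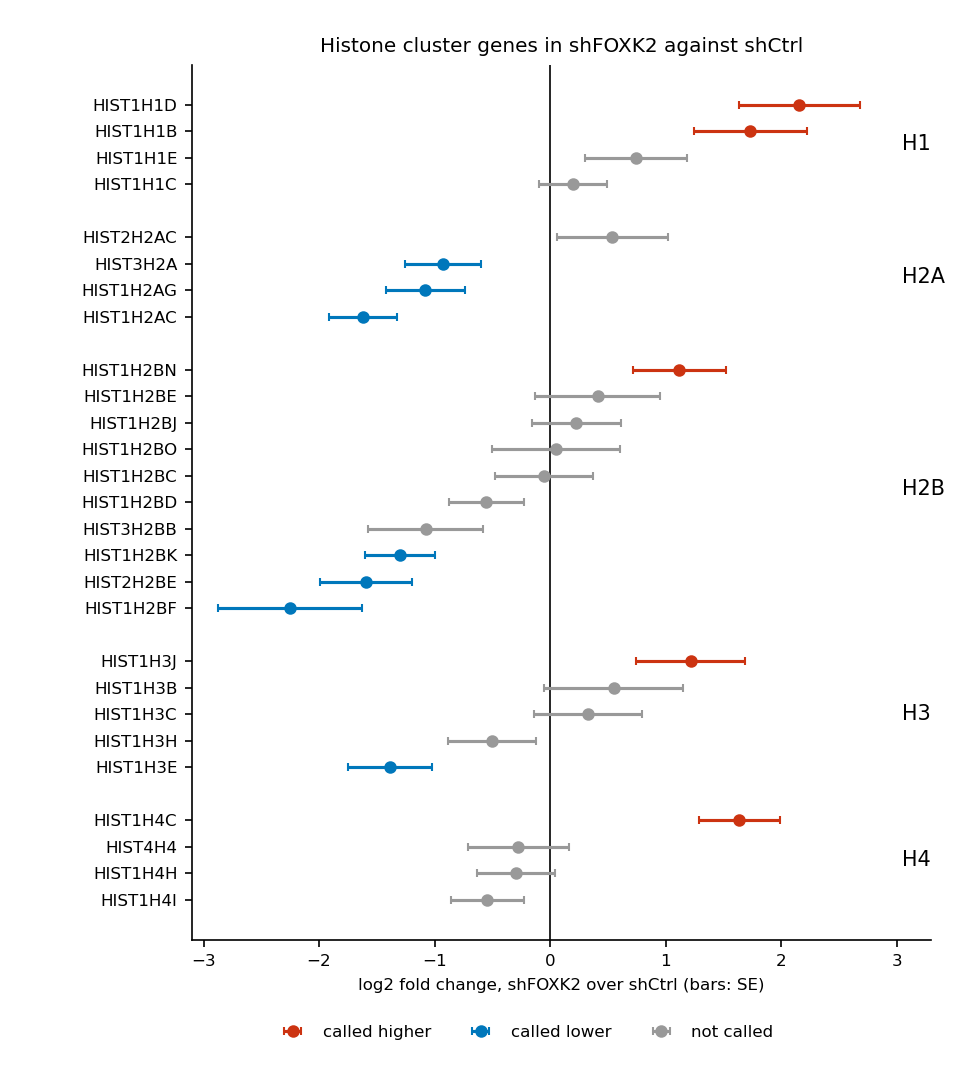
The log2 fold change (shFOXK2 over shCtrl, x axis) of each of the 27 tested histone cluster genes, grouped by class, with bars for the SE of the fit and colour for the call. Called H1 genes lie to the right of 0 and called H2A genes to the left, while H2B and H3 have calls on both sides.

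The levels were also summed by class. H2A genes together made up 44.5 and 51.3 CPM in shCtrl and 17.8 and 24.4 in shFOXK2, and H2B genes 49.5 and 55.4 against 26.0 and 38.2. H3 genes were also lower, at 12.5 and 11.3 CPM against 8.35 and 9.04. For these classes the groups did not overlap, whereas for H1 (15.3 and 20.5 against 19.4 and 27.1 CPM) and H4 (19.6 and 23.6 against 23.57 and 27.3) they did. The mean H2A total in shFOXK2 was 0.440 of that in shCtrl. As a share of all histone cluster counts, H2A made up 31.5% and 31.6% in shCtrl and 18.7% and 19.3% in shFOXK2, and H1 made up 10.8% and 12.7% in shCtrl and 20.4% and 21.5% in shFOXK2. Single genes set some of these totals. Without HIST1H3E the H3 totals overlapped, and without HIST1H1C the H1 total was higher in shFOXK2, at 4.98 and 8.05 CPM against 2.42 and 4.11. The H4 total was higher in shFOXK2 without HIST1H4A, HIST1H4H or HIST1H4I, and without HIST1H4C it was lower, at 16.7 and 18.5 CPM against 11.9 and 14.5. With 2 libraries in each group, an exact permutation test of a class total cannot fall under p = 0.33.

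**Figure D2:**
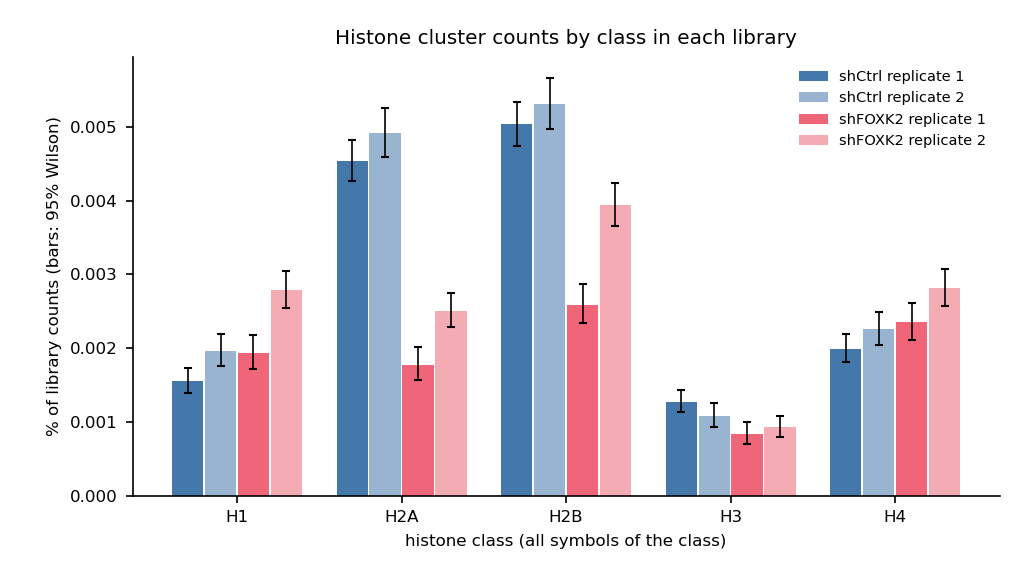
The share of library counts (%, y axis) in each histone class for every library, with 95% Wilson intervals as bars. H2A and H2B bars are shorter in both shFOXK2 libraries, while H1 bars overlap between the groups and H4 bars are somewhat taller in shFOXK2.

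Of 4 tested linker histone genes, 2 were higher and 2 did not pass. HIST1H1D stood at 0.492 and 0.498 CPM in shCtrl and at 1.26 and 3.12 in shFOXK2 (11, 8, 18 and 57 counts), a log2 fold change of 2.16 ± 0.52 (SE) at an adjusted p of 0.00421. HIST1H1B had 0.358 and 0.373 CPM in shCtrl and 1.19 and 1.26 in shFOXK2 (8, 6, 17 and 23 counts), a log2 fold change of 1.73 ± 0.49 (adjusted p = 0.0100). Both genes lay higher in each shFOXK2 library than in each shCtrl library. HIST1H1C, the H1 gene with the highest level per kilobase of annotated exon (21.5 CPM per kb over all libraries), did not pass, with 12.8 and 16.4 CPM in shCtrl and 14.5 and 19.0 in shFOXK2 (log2 fold change 0.20 ± 0.29, adjusted p = 0.605). HIST1H1E had 1.07 and 2.49 against 2.53 and 3.29 CPM (0.74 ± 0.44, adjusted p = 0.180). The rises rest on low counts. HIST1H1D was not called without shFOXK2 replicate 2 (log2 fold change 1.31, adjusted p = 0.0890), and HIST1H1B was not called without shCtrl replicate 1 (adjusted p = 0.113), without shCtrl replicate 2 (0.0959) or by DESeq2 (0.108).

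All H2A genes that passed were lower. HIST1H2AC, which held the most counts of any member, had 524 and 424 counts in shCtrl against 99 and 168 in shFOXK2, or 23.5 and 26.4 against 6.95 and 9.20 CPM. Its log2 fold change was -1.62 ± 0.29 (SE) at an adjusted p of 0.000617. The gene lies on chr6:26124145-26139116 in hg38, and its longer annotated transcripts are spliced and end far beyond the stem-loop. An exon of another annotated gene overlaps it on the same strand. HIST1H2AG went from 6.09 and 6.28 to 2.53 and 3.29 CPM, a log2 fold change of -1.08 ± 0.34 (adjusted p = 0.0194). HIST3H2A, from the small cluster on the long arm of chromosome 1, went from 12.9 and 16.7 to 5.96 and 9.53 CPM (-0.92 ± 0.33, adjusted p = 0.0319). For all 3 genes each shFOXK2 library was below each shCtrl library. HIST2H2AC, in the other cluster of chromosome 1, had 0.671 and 0.498 against 0.912 and 0.822 CPM and did not pass (0.54 ± 0.48, adjusted p = 0.375). HIST3H2A lost its call without shCtrl replicate 2 (adjusted p = 0.0778), without shFOXK2 replicate 1 (0.167) and with scaling by library size alone (0.0579). HIST1H2AL, the fifth H2A gene by mean CPM, had 4 to 9 counts in each library and was not tested.

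Among 10 tested H2B genes, 3 were lower, 1 was higher and 6 did not pass. HIST1H2BK fell from 16.4 and 20.4 to 6.52 and 8.38 CPM, a log2 fold change of -1.30 ± 0.30 (SE) at an adjusted p of 0.00335. HIST2H2BE fell from 10.2 and 10.4 to 1.89 and 4.82 CPM (-1.59 ± 0.40, adjusted p = 0.00529), so its shFOXK2 libraries differed from each other more than its shCtrl libraries did. HIST1H2BF had 16 and 13 counts in shCtrl against 2 and 3 in shFOXK2 (log2 fold change -2.25 ± 0.62, adjusted p = 0.00889). Its counts per library total were 4.79 times higher in shCtrl, with a 95% exact counting interval of 1.83 to 15.9. HIST1H2BN was the H2B gene that rose, from 1.70 and 1.18 to 2.53 and 3.78 CPM (1.12 ± 0.40, adjusted p = 0.0344). HIST1H2BD, the H2B gene with the second highest level per kilobase, had 12.3 and 13.7 against 6.52 and 11.1 CPM and did not pass (-0.55 ± 0.33, adjusted p = 0.181), but was called lower without shFOXK2 replicate 2 (-1.02, adjusted p = 0.0344). HIST1H2BJ had 2.42 and 3.61 against 2.74 and 4.22 CPM, with overlapping groups (0.23 ± 0.38, adjusted p = 0.653). HIST1H2BF was not called without shCtrl replicate 1 (adjusted p = 0.0710), without shCtrl replicate 2 (0.0852) or by DESeq2 (0.113). HIST1H2BN was not called without shCtrl replicate 1 (0.0532), without shCtrl replicate 2 (0.239), without shFOXK2 replicate 2 (0.170) or by DESeq2 (0.108).

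The H3 genes split. HIST1H3E fell from 6.98 and 4.98 to 2.03 and 2.52 CPM, a log2 fold change of -1.39 ± 0.36 (SE) at an adjusted p of 0.00666. HIST1H3J rose from 0.448 and 0.747 to 1.47 and 1.26 CPM (10, 12, 21 and 23 counts; 1.22 ± 0.47, adjusted p = 0.0474). In the annotation HIST1H3J overlaps HIST1H2AM on the same strand, which had 0 counts throughout. HIST1H3H, with 3.09 and 2.74 against 1.61 and 2.47 CPM, did not pass (-0.50 ± 0.38, adjusted p = 0.298), and neither did HIST1H3C (0.33 ± 0.47, adjusted p = 0.589) and HIST1H3B (0.55 ± 0.60, adjusted p = 0.475). The HIST1H3J call was the least stable of the 12. In edgeR it was lost with the replicate number as a block (adjusted p = 0.0756) and without a filter (0.0763). By DESeq2 the adjusted p was 0.238. With any 1 library left out, the log2 fold change of HIST1H3J ran from 0.83 to 1.52.

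HIST1H4C moved most clearly upward. It had 65 and 81 counts in shCtrl against 166 and 235 in shFOXK2, or 2.91 and 5.04 against 11.6 and 12.9 CPM, and its log2 fold change was 1.64 ± 0.35 (SE) at an adjusted p of 0.00179. The gene is a single exon on chr6:26103933-26104337, plus strand. Its level per kilobase of exon rose from 9.81 to 30.3 CPM per kb, the highest of all members in shFOXK2, while HIST1H2BK was highest in shCtrl (37.2 CPM per kb). HIST1H4I, another intronless H4 gene, had 9.62 and 10.9 against 5.96 and 8.05 CPM and did not pass (-0.54 ± 0.32, adjusted p = 0.171). HIST1H4H went from 4.34 and 4.92 to 3.79 and 3.73 CPM (-0.30 ± 0.34, adjusted p = 0.492) and HIST4H4, the member on chromosome 12, from 1.66 and 1.06 to 1.05 and 1.21 (-0.28 ± 0.44, adjusted p = 0.629). Both fold changes of HIST1H4H and HIST4H4 turned to 0.04 when the base composition of transcripts was taken into account. HIST1H4A, the fifth H4 gene by mean CPM, had 2 to 13 counts and was not tested.

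**Figure D3:**
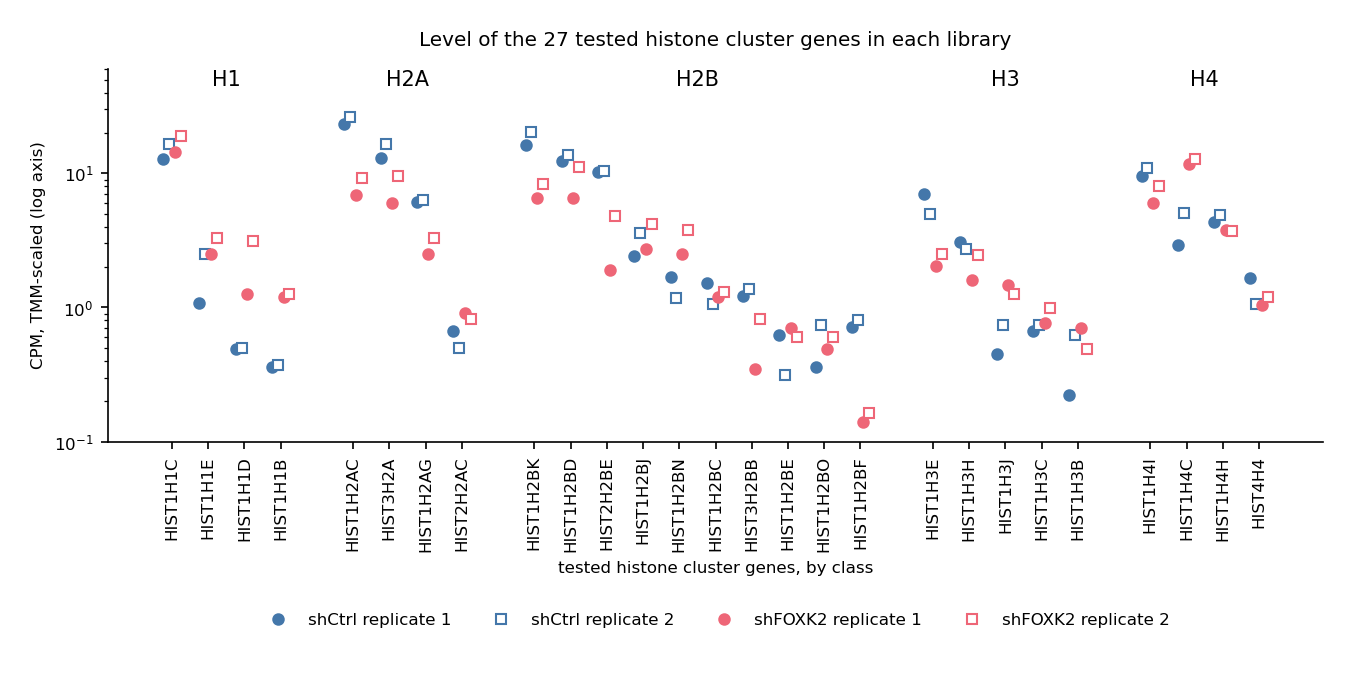
The level of each tested histone cluster gene (CPM after TMM scaling, log axis) in the 4 libraries, by class and in order of mean CPM. HIST1H4C, HIST1H1D and HIST1H1B have both shFOXK2 points above both shCtrl points, and HIST1H2AC, HIST1H2BK, HIST2H2BE and HIST1H3E have both below.

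The calls of HIST1H2AC, HIST1H2BK, HIST2H2BE, HIST1H3E and HIST1H4C held in all 14 alternative settings tried. Across those settings the log2 fold change of HIST1H2AC ran from -1.87 to -1.27, that of HIST1H2BK from -1.52 to -0.95, that of HIST2H2BE from -2.47 to -1.12, that of HIST1H3E from -1.68 to -1.02 and that of HIST1H4C from 1.25 to 2.00. Of these 5 genes, HIST1H2AC, HIST2H2BE and HIST1H3E have an annotated end beyond the stem-loop, while HIST1H2BK and HIST1H4C do not. Among the 13 tested members with such an end, 1 was higher and 4 were lower, with a median log2 fold change of -0.50. Among the 14 without one, 4 were higher and 3 were lower, with a median of 0.43. Over all coding members, the 18 with such an end held a mean of 0.00848% of library counts in shCtrl and 0.00475% in shFOXK2. The 53 without one held 0.00631% and 0.00633%. This split is a description, and the difference was not tested.

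Median base composition differed between members that moved in opposite directions. A content was taken from the annotated transcript marked as canonical for each gene. Its median was 26.7% for the 5 genes that rose, 22.5% for the 7 that fell and 24.1% for the 15 that did not pass. Over all tested genes with a value it was 26.0%. HIST1H1D was at 31.3% A and HIST1H1B at 29.1%, whereas HIST3H2A was at 17.1% and HIST1H2AC at 20.8%. The groups overlapped, since HIST1H3J (21.7%) and HIST1H2BN (23.4%) rose while HIST1H2BF (25.4%) and HIST1H2BK (24.4%) fell. A content also differed by class, with a median of 28.9% over H1 symbols and 22.8% over H2A symbols. With a smooth offset on A content for each library, 5 members were higher and 5 were lower. HIST1H2AG (-0.74, adjusted p = 0.0737) and HIST3H2A (-0.63, adjusted p = 0.112) were then not called, and the median of the members turned from -0.05 to 0.22. The offset moved all tested genes by a median of 0.17, and the members' median is to be read beside that shift.

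Several H2A and H2B genes lie head to head and share the DNA between their starts. Compared were 5 such pairs with 219 to 251 bases between the annotated genes, counts for both genes in every library and a called member. For each, the share of the pair's counts from the more abundant gene was taken per library. In all 5 the called member was the more abundant gene and was called lower, so a lower share partly follows from this choice. HIST1H2BN, which rose, and HIST1H2BF, which fell, were left out because their partners had no count in any library. HIST1H2AC supplied 93.9% and 96.1% of the counts of its pair with HIST1H2BC in shCtrl and 85.3% and 87.5% in shFOXK2. HIST1H2AG supplied 71.6% and 63.5% of its pair with HIST1H2BJ in shCtrl and 48.0% and 43.8% in shFOXK2. HIST2H2BE supplied 93.8% and 95.4% of its pair with HIST2H2AC in shCtrl and 67.5% and 85.4% in shFOXK2. HIST1H2BK supplied 99.5% and 98.8% of its pair with HIST1H2AH in shCtrl and 94.9% and 98.7% in shFOXK2, where HIST1H2AH had 2 to 5 counts in each library. In the pairs led by HIST1H2AC, HIST1H2AG and HIST2H2BE the partner did not pass the test while the abundant gene fell. In the pair of HIST3H2A and HIST3H2BB the share stayed between 91.5% and 94.4%, with HIST3H2BB at 1.21 and 1.37 CPM in shCtrl and 0.351 and 0.822 in shFOXK2 (log2 fold change -1.08 ± 0.50, adjusted p = 0.0897). The difference between partners was not tested, and the rarer genes gave 2 to 77 counts in a library.

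**Figure D4:**
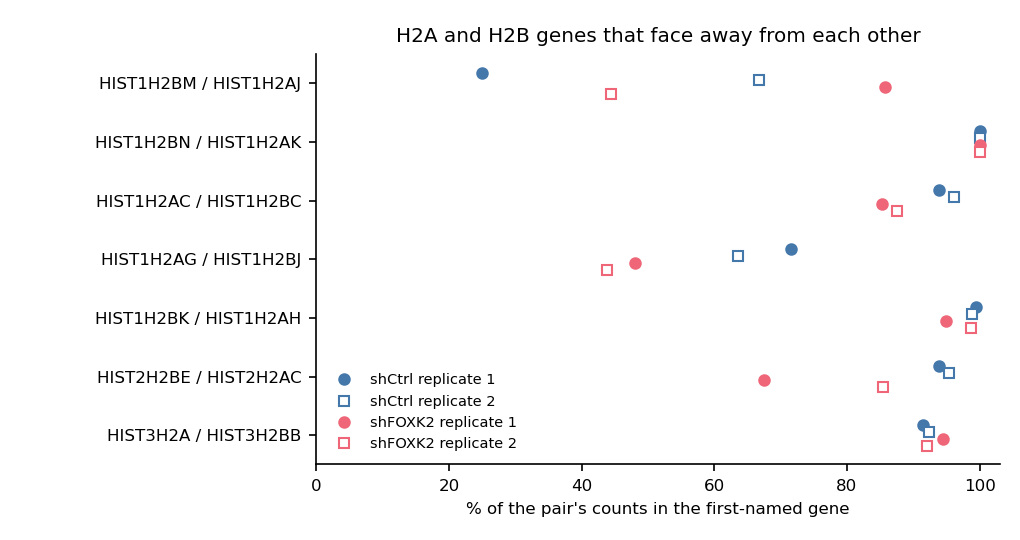
The percent of a pair's counts (x axis) that came from the first-named gene, for head-to-head H2A and H2B pairs with at least 40 counts in all, with 1 point per library. For HIST1H2AC, HIST1H2AG and HIST2H2BE both shFOXK2 points lie left of both shCtrl points, and the pair at the top rests on few counts.

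The promoters of the members carried motifs known from histone genes. Windows of 300 bases (250 before and 50 after the start) were searched on both strands in RefSeq sequence of GRCh38.p14, which held 66 of 71 coding members. The CCAAT box (CCAAT) was in 56 of 66 windows (84.8%), against 35.7% of all 27305 windows, but in 3 of 13 H4 windows (23.1%). The octamer ATTTGCAT was in 11 of 16 H2A and 14 of 18 H2B windows, and in 1.80% of all windows. TATAAA was in 66.7% of the members' windows and 12% of all. The forkhead core motif TGTTTAC was in 2 of 66 windows (3.03%), against 3.41% of all, and in none of the 25 windows of tested members. Those 2 windows, of HIST1H2AA and HIST1H2BA, overlap and hold the same site. Windows of other head-to-head H2A and H2B genes overlap as well, and HIST1H3D was given the window of HIST1H2AD. The members' motif counts are therefore not counts of independent windows. All 7 genes that fell and all 3 of the genes that rose with a window had a CCAAT box, and the octamer was in 5 of the 7, none of the 3 and 5 of the 15 that did not pass. It was in none of the 6 H1 windows and differed between classes. These matches describe letters in a window only. The 3 windows below are those of HIST1H2AC and HIST1H2BK, which fell and are not head to head with each other, and of HIST1H1D, which rose. They are printed 5′ to 3′, with CCAAT, ATTTGCAT and TATAAA in capitals on either strand, where TATAAA on opposite strands can overlap.

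HIST1H2AC (chr6:26123922-26124221, plus strand): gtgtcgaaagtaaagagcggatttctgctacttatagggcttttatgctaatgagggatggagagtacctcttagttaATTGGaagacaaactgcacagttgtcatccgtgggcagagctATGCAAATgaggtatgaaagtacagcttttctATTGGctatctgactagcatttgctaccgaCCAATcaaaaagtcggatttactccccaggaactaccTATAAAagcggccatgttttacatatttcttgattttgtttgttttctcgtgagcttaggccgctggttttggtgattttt
HIST1H2BK (chr6:27146809-27147108, minus strand): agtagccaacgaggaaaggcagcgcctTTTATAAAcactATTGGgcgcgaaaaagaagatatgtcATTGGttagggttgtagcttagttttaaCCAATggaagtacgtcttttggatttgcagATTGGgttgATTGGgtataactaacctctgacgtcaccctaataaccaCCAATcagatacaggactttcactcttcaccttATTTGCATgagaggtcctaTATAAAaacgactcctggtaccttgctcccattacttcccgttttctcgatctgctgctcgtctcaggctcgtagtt
HIST1H1D (chr6:26234938-26235237, minus strand): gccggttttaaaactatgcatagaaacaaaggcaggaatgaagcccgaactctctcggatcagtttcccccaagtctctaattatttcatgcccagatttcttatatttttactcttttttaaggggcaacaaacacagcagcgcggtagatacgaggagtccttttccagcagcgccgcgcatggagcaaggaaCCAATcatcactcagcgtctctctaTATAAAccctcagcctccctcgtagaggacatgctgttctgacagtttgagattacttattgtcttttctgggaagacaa

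The HIST1H2AC and HIST1H2BK windows hold all 3 motifs, and the HIST1H1D window holds the CCAAT box and TATAAA without the octamer.

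Replication-independent histone variants mostly have mRNAs with ordinary poly(A) tails and can be placed outside S phase. Of 12 such genes, 11 were tested, 4 were higher in shFOXK2 and 0 lower by edgeR, with a median log2 fold change of 0.46, against 25.7% higher and 22.7% lower of all tested genes. H2AFX (H2AX), which marks DNA breaks when phosphorylated and also carries the stem-loop, went from 290 ± 60.1 CPM (SD, n = 2) to 507 ± 54.2 (log2 fold change 0.81 ± 0.24, SE, adjusted p = 0.0143). CENPA, the H3 variant of centromeres, went from 31.7 ± 3.20 to 54.2 ± 11.3 CPM (0.77 ± 0.26, adjusted p = 0.0267). H2AFY, which encodes macroH2A, rose by 0.65 ± 0.23 (adjusted p = 0.0305) and H3F3A, which encodes H3.3, by 0.86 ± 0.31 (adjusted p = 0.0367). H3F3B, the other gene of that variant, did not pass (0.08 ± 0.24, adjusted p = 0.810). H1F0, the linker variant of resting cells, had 162 ± 0.235 against 105 ± 31.1 CPM and did not pass (-0.62 ± 0.26, adjusted p = 0.0593). H1FX, H2AFZ, H2AFV, H2AFY2 and H2AFJ did not pass either, with log2 fold changes from -0.07 to 0.46. With the A-content offset H2AFZ (0.71, adjusted p = 0.0216) and H2AFY2 (0.68, adjusted p = 0.0268) were called higher. With the replicate number as a block, H2AFY (adjusted p = 0.0759), H3F3A (0.0636) and CENPA (0.0556) were not called. Leaving out 1 library at a time left 0 to 2 of the variants called higher, with 0 of them without shCtrl replicate 1, and up to 1 called lower. At an unadjusted p under 0.05, 1 variant (H1F0) was lower, and DESeq2 and the edgeR exact test called 0 lower.

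The genes that make and process histone mRNA were next compared. Of 17 tested, 6 were higher and 0 lower by edgeR, beside the same 25.7% and 22.7% of all tested genes, with a median log2 fold change of 0.48. SLBP itself, which binds the stem-loop, had 63.4 ± 1.08 CPM (SD, n = 2) in shCtrl and 86.4 ± 1.52 in shFOXK2 and did not pass (0.45 ± 0.24, SE, adjusted p = 0.135). NPAT, the coactivator of histone gene transcription, rose by 1.17 ± 0.32 (adjusted p = 0.00890). CASP8AP2 (FLASH), a part of the cleavage complex, had 109 and 57 counts in shCtrl against 548 and 1033 in shFOXK2 (log2 fold change 3.49 ± 0.33, adjusted p = 5.12e-06). CCNE2, a cyclin partner of CDK2, rose by 1.72 ± 0.37 (adjusted p = 0.00179), and ERI1, an exonuclease that acts on the stem-loop, by 1.31 ± 0.31 (adjusted p = 0.00373). The cleavage factors CPSF2 (1.04 ± 0.29) and CPSF3 (0.72 ± 0.25) were also called higher. LSM10 and LSM11 of the U7 particle, ZNF473, SYMPK, CSTF2, CSTF2T, UPF1, CCNE1, CDK2 and E2F1 did not pass. With the A-content offset NPAT (0.0020, adjusted p = 0.995), CCNE2 (0.46, adjusted p = 0.284) and CPSF3 (0.19, adjusted p = 0.363) were not called, and CASP8AP2 was still higher, at 1.27. SLBP (0.64, adjusted p = 0.0118), LSM10, LSM11, ZNF473, SYMPK, CCNE1, CDK2 and E2F1 were called higher with that offset. CPSF3 was not called with the replicate block either (adjusted p = 0.0564). The smallest count of higher calls with 1 library left out was 3, without shCtrl replicate 2. At an unadjusted p under 0.05, 1 gene (UPF1) was lower, and DESeq2 and the edgeR exact test called 0 lower.

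Among 15 histone chaperone and chromatin assembly genes, 8 were higher and 0 lower (25.7% and 22.7% over all tested genes), with a median log2 fold change of 0.76. ATRX, which with DAXX places H3.3, had 443 and 248 counts in shCtrl against 3083 and 6292 in shFOXK2 (3.99 ± 0.30, SE), whereas DAXX did not pass (-0.42 ± 0.25, adjusted p = 0.188). CHAF1A, the large subunit of the assembly factor CAF-1, rose by 1.57 ± 0.26, and NASP, a chaperone of H1 and H3-H4, by 1.58 ± 0.26. HAT1, which acetylates new H4, rose by 1.35 ± 0.25, and NAP1L1, a chaperone of H2A-H2B, by 1.20 ± 0.25. SSRP1 (0.79 ± 0.23) and SUPT16H (0.79 ± 0.25), the subunits of FACT, and HIRA (0.76 ± 0.28) were called higher as well. ASF1A, ASF1B, CHAF1B, RBBP4, RBBP7 and NAP1L4 did not pass. With the A-content offset HAT1 (0.23, adjusted p = 0.330) and SUPT16H (0.42, adjusted p = 0.0541) were not called, and ATRX was at 2.24 and NASP at 1.05. ASF1B (0.76, adjusted p = 0.00544), CHAF1B (0.91, adjusted p = 0.00525) and NAP1L4 (0.72, adjusted p = 0.00584) were called higher with that offset. HIRA was not called with the replicate block (adjusted p = 0.0804). The count of higher calls was 5 without shFOXK2 replicate 2, and 0 genes were lower at an unadjusted p under 0.05, by DESeq2 or by the exact test.

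Markers of S phase and proliferation were given beside the histone genes. Of 10 tested, 6 were higher and 0 lower by edgeR, with a median log2 fold change of 0.90, where 25.7% and 22.7% of all tested genes were called in these directions. MCM4 rose by 1.66 ± 0.24 (SE), TYMS by 0.93 ± 0.24 and RRM2 by 1.01 ± 0.24, while PCNA (0.22 ± 0.24, adjusted p = 0.473), MCM2, MCM5 and MCM6 did not pass. TOP2A went from 160 ± 58.0 (SD, n = 2) to 2179 ± 123 CPM and MKI67 from 171 ± 63.5 to 618 ± 9.32, and MCM3 rose by 0.86 ± 0.24. The log2 fold change of TOP2A was 3.77 and that of MKI67 1.86, and with the A-content offset 2.37 and 0.78. MCM5 (0.76, adjusted p = 0.0157) was called higher with that offset. At an unadjusted p under 0.05, by DESeq2 and by the exact test, 0 were lower. The part of proliferation in the histone values was not tested.

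Other RNAs without a classical poly(A) tail also differed between the groups. RN7SK, RN7SL1 and RPPH1 were listed at 0 in all libraries, and TERC had 0 to 2 counts. RN7SL2, an RNA of the signal recognition particle, had 2855 and 2027 counts in shCtrl against 443 and 448 in shFOXK2 (log2 fold change -2.19 ± 0.26, SE), while RMRP did not pass (-0.60 ± 0.34, adjusted p = 0.154). MALAT1, whose mature end is a triple helix beside an A-rich stretch, had 9376 and 4010 counts in shCtrl against 169962 and 181543 in shFOXK2 (5.03 ± 0.36). RN7SL2 and MALAT1 moved in opposite directions, and whether capture of RNA without a tail differed between the groups was not tested.

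**Figure D5:**
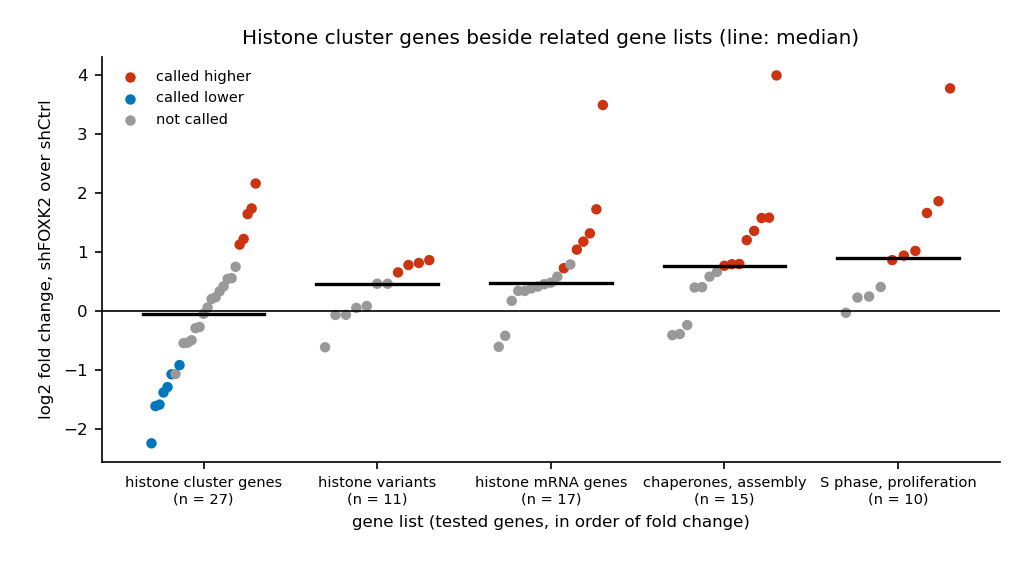
The log2 fold change (shFOXK2 over shCtrl, y axis) of each tested gene in 5 lists, in order within a list, with a line at the median and colour for the call. Histone cluster genes have calls on both sides of 0 and a median of -0.05, while the other 4 lists have calls above 0 alone and medians from 0.46 to 0.90.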

How the data were processed

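Poly(A)-selected RNA from 4 OVCAR5 libraries (2 shCtrl, 2 shFOXK2) was sequenced by the authors as single-end 50-base reads, aligned with STAR 2.5.2 to hg38 (GRCh38) and counted with HTSeq. The kit for poly(A) selection is named differently in the labels and in the methods. Raw counts for each symbol were deposited by the authors without normalization. Gene annotation and strand setting are not given in the sources used here, so reads of overlapping genes may have been assigned to either.

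Histone class was read from the symbol. Sample titles gave the groups. After filterByExpr and TMM scaling, 16417 genes were compared by the 2-sided quasi-likelihood test of edgeR 4.0.16 (R 4.3.3). P-values were adjusted by Benjamini-Hochberg across these genes, and calls were made under 0.05. The fit was checked on simulated counts, and adjusted p-values come from it unless another is named. With 2 libraries a group, p-values rest on variance shared between genes. SE is the size of the log2 fold change over the root of its F statistic. Depth was 14284005 to 21950873 counts, and 3 counts were 0.137 to 0.21 CPM before TMM scaling. Shares have 95% Wilson intervals, which cover counting error only, since reads without molecular identifiers are not independent molecules. Symbols were matched to current names through RefSeq (90 of 90) and GENCODE v44 (89 of 90), from which ends, composition and overlaps came.

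Named genes were the 5 members of each class with the highest mean CPM, the 4 largest called rises and falls, the listed genes of the pathway and FOXK2. HIST1H3A, HIST1H4K, HIST1H4J, HIST2H4A, HIST1H1PS2, HIST1H2AD, HIST1H3D, HIST1H2AM and the partners in gene pairs were named after seeing their values. Members and lists were chosen with earlier results of these data known. Alternatives were DESeq2 1.42.0, the edgeR exact test, other scalings and filters, an A-content offset (lowess span 0.2), a replicate block and leaving out each library.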

Additional observations from a re-analysis of the deposited data

How the results depend on the processing

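Of 12 histone cluster genes called, 5 kept their call in every alternative that could be fitted. Without the libraries one at a time, the members called higher numbered 2 to 4 and those called lower 5 to 9. Requiring 10 counts or more in each library left 3 called higher, and DESeq2 left 2. The histone variants called higher numbered 1 without a filter, 1 with the replicate block and 0 to 2 with a library left out, and those called lower 1 with DESeq2 size factors, 1 without a filter and 0 to 1 with a library left out. The histone mRNA genes called higher numbered 11 with the A-content offset and 3 to 6 with a library left out, and those called lower 1 with DESeq2 size factors, 1 without a filter and 0 to 1 with a library left out. The chaperones called higher numbered 5 to 7 with a library left out. The causes were not tested.

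Deviations of same-numbered libraries from their group means had a correlation of -0.11. With 2 libraries a group this value is the same for both numbers by construction. It cannot settle whether the numbers pair the libraries. With the replicate block 7270 genes were called in place of 7940, and 4 members were higher and 7 lower. A block with crossed numbers, chosen after seeing the data, called 8350 genes, with 4 members higher, 7 lower, 1 variant lower and 1 histone mRNA gene lower.

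Medians of few genes moved. The median of all members was -0.25 with at least 10 counts, 0.22 with the A-content offset, 0.24 with that offset and the block, and -0.16 to -0.021 with a library left out. In the same terms, the H1 median was 0.37 without a filter and 0.52 with at least 10 counts. The H2A median was -0.31 without a filter, -0.69 with the offset, -0.72 with offset and block and -1.33 to -0.80 with a library left out. The H2B median was 0.11 without a filter, -0.0019 with the offset and -0.015 with offset and block. The H3 median was 0.01 without a filter, -0.036 with at least 10 counts, 0.66 with the offset, 0.64 with offset and block and 0.0062 to 0.32 with a library left out. The H4 median was -0.39 without a filter, 0.039 with the offset, 0.062 with offset and block and -0.42 to -0.28 with a library left out. The offset shifted all tested genes by a median of 0.17 and no filter by -0.10.

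Of genes not called, some log2 fold changes turned. With a library left out, that of HIST1H1C ran from -0.047 to 0.36, that of HIST1H2BJ from -0.16 to 0.47, that of HIST1H3B from -0.11 to 1.30 and that of HIST4H4 from -0.62 to 0.064. With the offset, and with offset and block, HIST1H4H was at 0.035 and 0.034 and HIST4H4 at 0.043 and 0.0895. The share of counts in shCtrl was 0.01622% without mitochondrial genes in the total and 0.0125% without HIST1H2AC. Without HIST1H2AC the share in shFOXK2 replicate 2 was no lower than that in shCtrl replicate 1, so the groups overlapped. At least 10 counts were found for 27, 24, 26 and 27 members in shCtrl replicates 1 and 2 and shFOXK2 replicates 1 and 2. Members with few counts limit the precision.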

Other observations

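The members on chromosome 6 lie between positions 25723397 and 27893891 of hg38, with 66 members in that stretch. Another 17 genes within it were tested by edgeR, of which 0 were higher and 8 were lower in shFOXK2, with a median log2 fold change of -0.60, against 25.7% higher and 22.7% lower of all tested genes. At an unadjusted p under 0.05, by DESeq2 and by the edgeR exact test, 0 were higher. The called members of the stretch went both ways, with HIST1H1D, HIST1H1B, HIST1H4C, HIST1H3J and HIST1H2BN higher and HIST1H2AC, HIST1H2AG, HIST1H2BK, HIST1H2BF and HIST1H3E lower. Whether members and neighbours differed was not tested.

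The 19 pseudogenes gave 31 and 28 counts in shCtrl libraries against 19 and 31 in those of shFOXK2, and none passed the low-count filter. HIST1H1PS1 had 10 and 9 counts in shCtrl against 0 and 7 in shFOXK2.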
